A study of Mus musculus with 2 samples.

Results

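The LIM homeobox genes Isl1, Lhx2, Lhx6, Lhx8, Isl2, Lhx1, Lhx3, Lhx4, Lhx5 and Lhx9 were examined in a list of accessible regions from mouse embryonic striatum. A locus is the RefSeq span of a gene, from its first to its last annotated base, with 50 kb on each side. Every deposited peak that overlapped a locus by at least 1 bp was taken. The rule gave 98 peaks of 87174 in the whole list, and no peak was shared between loci. The nuclei came from wild-type striatum at E14.5, on a strain background of C57BL/6J and CD1. Droplet-based single-nucleus ATAC-seq was used, in which a transposase cuts and tags open DNA. There were 2 libraries in 1 group, and the deposited result is 1 peak list for both. It gives positions without counts or scores. Depth, number of nuclei, cell types and the spread between libraries are unknown, and no value below has an error or a test.

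LIM homeodomain proteins carry paired LIM zinc-finger domains and a DNA-binding homeodomain. Their LIM domains bind the cofactor Ldb1, which joins them into larger complexes, and combinations of family members specify neuron types in brain and spinal cord. In the telencephalon, Isl1 acts in striatal projection neurons of the direct pathway and, with Lhx8, in cholinergic neurons. Lhx6 directs the migration and identity of interneurons from the medial ganglionic eminence, and Lhx2 is a selector gene of telencephalic progenitors and cortex. The other 6 genes are better known elsewhere. Isl2, Lhx3 and Lhx4 act in motor neurons, and Lhx3 and Lhx4 also in the pituitary. Lhx1 and Lhx5 act in Cajal-Retzius cells, cerebellum and spinal interneurons, and Lhx9 in diencephalon, spinal interneurons and gonad. Most members fall into close paralogue pairs, here taken as 5 pairs: Isl1 with Isl2, Lhx2 with Lhx9, Lhx6 with Lhx8, Lhx1 with Lhx5 and Lhx3 with Lhx4.

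RefSeq promoters (GRCm38.p6, the assembly that mm10 names) were given for 9 of the 10 genes, all but Lhx5, with 13 start sites between them. Each promoter runs from 250 bases before to 50 bases after the start. The promoters of 3 paralogue pairs are shown because they span the range of CG counts among the 13, from 37 at Isl1 to 4 at Lhx8. Each of their starts nevertheless lay in a peak. CG dinucleotides are in capitals and the sequences read 5′ to 3′ on the gene's strand. The windows are chr13:116309639-116309938 on the minus strand for Isl1, chr9:55540899-55541198 on the plus strand for Isl2, chr2:38351058-38351357 on the plus strand for the second Lhx2 start, chr1:138842395-138842694 on the minus strand for Lhx9, chr2:36105359-36105658 on the minus strand for the first Lhx6 start and chr3:154330511-154330810 on the minus strand for Lhx8.
Isl1: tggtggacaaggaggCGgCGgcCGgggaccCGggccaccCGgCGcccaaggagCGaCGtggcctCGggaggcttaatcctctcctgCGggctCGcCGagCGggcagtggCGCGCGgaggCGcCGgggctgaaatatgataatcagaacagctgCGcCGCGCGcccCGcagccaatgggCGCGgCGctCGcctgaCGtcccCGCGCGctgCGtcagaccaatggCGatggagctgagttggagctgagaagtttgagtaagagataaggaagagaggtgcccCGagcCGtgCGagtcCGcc
Isl2: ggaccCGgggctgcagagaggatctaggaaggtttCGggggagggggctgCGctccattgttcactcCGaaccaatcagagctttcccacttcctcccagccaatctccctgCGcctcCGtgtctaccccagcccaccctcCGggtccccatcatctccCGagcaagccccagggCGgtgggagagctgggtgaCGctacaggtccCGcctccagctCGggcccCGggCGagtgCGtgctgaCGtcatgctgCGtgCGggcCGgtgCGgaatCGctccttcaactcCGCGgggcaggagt
Lhx2: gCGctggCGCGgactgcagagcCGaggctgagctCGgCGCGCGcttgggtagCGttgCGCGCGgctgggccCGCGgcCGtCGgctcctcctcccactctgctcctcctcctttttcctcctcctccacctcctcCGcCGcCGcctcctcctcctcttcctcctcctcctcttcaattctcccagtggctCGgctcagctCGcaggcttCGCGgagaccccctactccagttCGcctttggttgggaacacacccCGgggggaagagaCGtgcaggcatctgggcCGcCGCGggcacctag
Lhx9: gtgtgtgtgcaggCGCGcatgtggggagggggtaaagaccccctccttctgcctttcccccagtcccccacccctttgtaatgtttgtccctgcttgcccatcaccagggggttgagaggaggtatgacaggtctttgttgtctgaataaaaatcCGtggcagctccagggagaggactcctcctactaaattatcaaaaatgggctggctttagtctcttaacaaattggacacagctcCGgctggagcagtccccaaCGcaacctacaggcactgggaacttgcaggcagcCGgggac
Lhx6: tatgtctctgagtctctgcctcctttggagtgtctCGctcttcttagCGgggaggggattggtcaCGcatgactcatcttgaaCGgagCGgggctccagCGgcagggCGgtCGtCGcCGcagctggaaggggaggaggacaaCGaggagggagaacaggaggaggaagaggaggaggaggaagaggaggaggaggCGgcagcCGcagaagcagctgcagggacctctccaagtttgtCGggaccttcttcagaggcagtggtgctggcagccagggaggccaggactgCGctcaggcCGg
Lhx8: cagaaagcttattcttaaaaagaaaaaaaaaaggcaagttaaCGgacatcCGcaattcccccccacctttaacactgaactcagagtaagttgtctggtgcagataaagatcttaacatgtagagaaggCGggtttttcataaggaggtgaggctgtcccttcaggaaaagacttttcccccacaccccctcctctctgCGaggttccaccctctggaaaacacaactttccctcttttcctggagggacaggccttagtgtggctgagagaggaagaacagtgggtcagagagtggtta

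All 13 starts, and so all 9 genes with an entry, lay inside a peak, whether or not the gene is known from the striatum. Among all protein-coding genes with an entry, 64% had a start inside a peak and 59.6% had every start inside one. CG content goes with this measure over the genome: with promoters in 3 classes of similar size by CG count, 98.4% of starts were in a peak in the highest class (22 to 67 CG per promoter), 84.3% in the middle class (7 to 21) and 13.4% in the lowest class (0 to 6). Isl1 had 37 CG, the first Lhx2 start 34, Lhx1 31, the second Lhx2 start 29, the second Lhx3 start 28 and Isl2 23, all in the highest class. Lhx4 had 19 CG, the first Lhx3 start 13, and the Lhx6 starts 16, 17 and 11. Lhx8 with 4 CG and Lhx9 with 6 CG were in the lowest class. Their promoters, printed above, thus lay in peaks although most promoters of that class did not.

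Core motifs of homeodomain factors were searched in these promoters. TAATTA, the core bound by LIM homeodomain and DLX factors, was found in 0 of the 13 promoters, against 4.53% of 21263 promoters of protein-coding genes. It is its own reverse complement, so 1 search covers both strands. TGACAG, the MEIS core, was searched on both strands and found in 3 of the 13, against 18.7% of all. These were Lhx9, 125 bases before the start, Lhx1, 248 bases before the start, and the last of the Lhx6 starts, where the match lay in the transcribed part. Neither motif contains the other, and a match here is a match of letters only. The windows cover a small part of each peak.

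The peaks over the starts were wide. There were 10 of them, since the 3 Lhx6 starts lay in 1 peak and the 2 Lhx3 starts in another, whereas the 2 Lhx2 starts lay in separate peaks. Over all protein-coding genes, 10822 peaks covered a start, with a median width of 1732 bp (quartiles 1303 and 2367 bp). All 10 member peaks were above the upper quartile. Of these, 6 were wider than the upper decile of 3364.5 bp, which 10% of all start peaks exceed. Lhx1 had the widest at 11274 bp (percentile 99.8 among start peaks), followed by the second Lhx2 start at 9349 bp (99.6), Isl2 at 7658 bp (99.1), Lhx9 at 4573 bp (95.8), Lhx6 at 4433 bp (95.4) and Lhx8 at 3415 bp (90.4). Lhx4 at 3162 bp, the first Lhx2 start at 2877 bp, Isl1 at 2647 bp and Lhx3 at 2421 bp were below that decile.

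Most of these peaks reached farther into the gene than away from it. Counting each peak once, by its first listed start, 9 of 10 extended farther downstream than upstream of the start, against 70.9% of all start peaks. The second Lhx2 start had 8137 bp of peak downstream and 1212 bp upstream. Isl2 had 5985 bp downstream and 1673 bp upstream, and Lhx8 3114 bp downstream and 301 bp upstream. Isl1 was nearly even, with 1349 bp downstream and 1298 bp upstream. Lhx4 was the exception by this count, with 1524 bp downstream and 1638 bp upstream. The choice of start matters at Lhx3, whose peak had 2127 bp downstream and 294 bp upstream of the first start but 453 bp downstream and 1968 bp upstream of the second. Lhx1 extended far to both sides, 6422 bp downstream and 4852 bp upstream, over the non-coding gene Lhx1os.

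**Figure D1:**
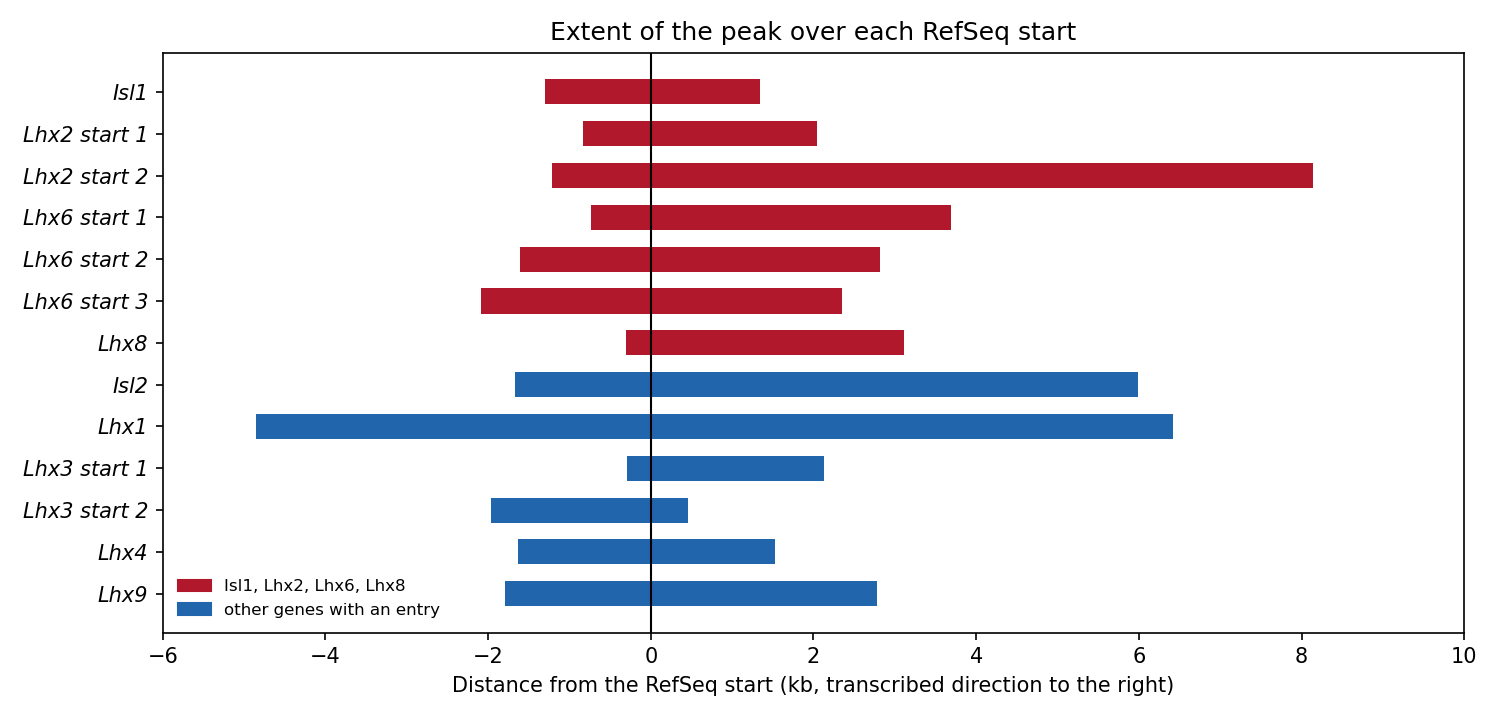
Extent of the deposited peak over each RefSeq start of the 9 genes with an entry. The x axis gives the distance from the start in kb, with the transcribed direction to the right, and each bar is the peak that holds the start. The second Lhx2 start reaches 8137 bp downstream, and Lhx1 has the widest peak at 11274 bp.

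Isl1, which encodes a factor of direct-pathway projection neurons and cholinergic neurons, had no peak that overlapped another annotated gene. Its locus (span 116298270 to 116309688 on chromosome 13) held 10 peaks, of which 8 lay in the span or within 10 kb of it. The widest, 3275 bp at chr13:116302685-116305960, lay inside the gene, away from the start. The start lay in a second wide peak of 2647 bp at chr13:116308339-116310986, and a peak of 1060 bp began just past the other end, 307 bp away. Beyond the start side, peaks of 584 bp and 451 bp lay 2265 and 3921 bp from the span, and the next, of 432 bp, lay 40892 bp away. On the other side, peaks of 694 bp and 445 bp lay 3995 and 18474 bp away. The nearest peaks outside the window were 83367 and 133667 bp from the span. The Isl1 peaks thus formed a tight group in a region with few other peaks.

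Lhx2, the selector gene of telencephalic progenitors, had the largest covered length of the 10 loci. Its locus (span 38339271 to 38369737 on chromosome 2) held 11 peaks covering 20565 bp. A peak of 9349 bp at chr2:38350096-38359445 held the second start and made up 45.5% of that length. A peak of 2959 bp at chr2:38346433-38349392 lay just before it inside the gene, over the non-coding gene Gm27197. The first start lay in a peak of 2877 bp at chr2:38338449-38341326. Beyond the far end, 4 flanking peaks of 1362, 1200, 863 and 527 bp lay 5502, 8638, 25262 and 42807 bp from the span. Before the start lay a peak of 417 bp, 2270 bp away, and a peak of 548 bp, 38998 bp away. No peak of this locus overlapped another protein-coding gene, and 6 of the 11 peaks were outside protein-coding genes.

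Lhx6, which acts in interneurons of the medial ganglionic eminence, had 9 peaks at its locus (span 36081950 to 36105992 on chromosome 2). All 3 starts lay in the 4433 bp peak at chr2:36101713-36106146. Inside the gene lay 4 further peaks, of 383, 1474, 568 and 6 bp. The peak of 6 bp is counted as deposited. None of the 9 peaks was outside protein-coding genes. A peak of 1175 bp lay where the ends of Ndufa8 and Morn5 meet, peaks of 393 and 753 bp lay inside Morn5, and a peak of 1397 bp lay at the ends of Rbm18 and Mrrf. The peak nearest to the Lhx6 span was the 753 bp peak in Morn5, 4105 bp away.

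Lhx8, a factor of forebrain cholinergic neurons, had the fewest peaks. Its locus (span 154306288 to 154330560 on chromosome 3) held 4, and 2 of them were wide neighbours at the start. The start lay in a peak of 3415 bp at chr3:154327446-154330861, and after a gap of 839 bp a peak of 3307 bp followed at chr3:154331700-154335007, outside protein-coding genes and over the non-coding gene AI606473. The rest of the gene had no peak. The other peaks were 697 bp wide, inside Slc44a5 and 35920 bp away, and 425 bp wide, 34293 bp beyond the start. Of the 10 genes, Lhx8 thus had the lowest number of peaks and the lowest covered share of its span, at 12.8%.

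Isl2, a motor neuron and retinal ganglion cell factor, had 5 peaks, but 1 of them covered most of the gene. The peak of 7658 bp at chr9:55539476-55547134 held the start and made up 76.7% of the covered length of the locus (span 55538677 to 55547667 on chromosome 9). Together with a peak of 209 bp at the first base of the span, peaks covered 86.9% of the gene. A peak of 368 bp lay 1697 bp beyond the far end, next to Scaper, and a peak of 464 bp lay 2339 bp before the span. The remaining peak, 1286 bp wide, was at the end of Etfa.

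Lhx1 and Lhx5, paralogues that act in Cajal-Retzius cells and spinal interneurons, had similar shares of their spans covered, by 1 peak at Lhx1 and 2 at Lhx5. At Lhx1 (span 84517975 to 84525534 on chromosome 11) 1 peak of 11274 bp at chr11:84519112-84530386 covered 84.9% of the gene and ran on into Lhx1os. The other 8 peaks of the locus were 43 to 1543 bp wide, with 3 of them in or at the end of Aatf. At Lhx5 (span 120431886 to 120441457 on chromosome 5) a peak of 6703 bp at chr5:120434456-120441159 and a peak of 2639 bp at chr5:120430797-120433436 together covered 86.2%. Before the Lhx5 span lay 5 peaks within 7414 bp, of 173 to 1323 bp, over the non-coding genes Gm27199 and Gm31976. Of the 13 peaks at Lhx5, 8 were outside protein-coding genes, the most of any member.

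Lhx3 and Lhx4, which act in motor neurons and pituitary, had many peaks of moderate width. Lhx3 (span 26200212 to 26208249 on chromosome 2) had 13 peaks, the highest number per length. Peaks of 2421 bp over the starts, at chr2:26206122-26208543, and of 2052 bp near the far end, with 2 narrow peaks of 189 and 328 bp between them, covered 58.4% of the gene. The neighbouring gene Qsox2 held or bordered 3 further Lhx3 peaks, and its end also lies within 1000 bp of the Lhx3 start peak. Lhx4 (span 155698031 to 155751726 on chromosome 1) is the longest member and had 17 peaks, of which 10 overlapped the gene. Its widest was the start peak of 3162 bp at chr1:155740503-155743665. Among the others in the gene were peaks of 1553, 1105 and 1068 bp. The 6 Lhx4 peaks inside other protein-coding genes lay in Acbd6 and Qsox1.

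Lhx9, known from diencephalon and spinal cord, had its peaks in a run along the gene. Of 7 peaks at the locus (span 138825186 to 138848839 on chromosome 1), 5 overlapped the gene. Peaks of 2103, 4573 and 3165 bp followed each other, and the 4573 bp peak at chr1:138839668-138844241 held the start. The 3165 bp peak at chr1:138846059-138849224 covered the end of the span, which is the upstream end because Lhx9 is on the minus strand. No RefSeq start of the promoter table lies there. A peak of 789 bp at the end of 2310009B15Rik and a peak of 356 bp 39018 bp away were the others. The next peaks outside the window were 113956 and 130701 bp from the span.

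**Figure D2:**
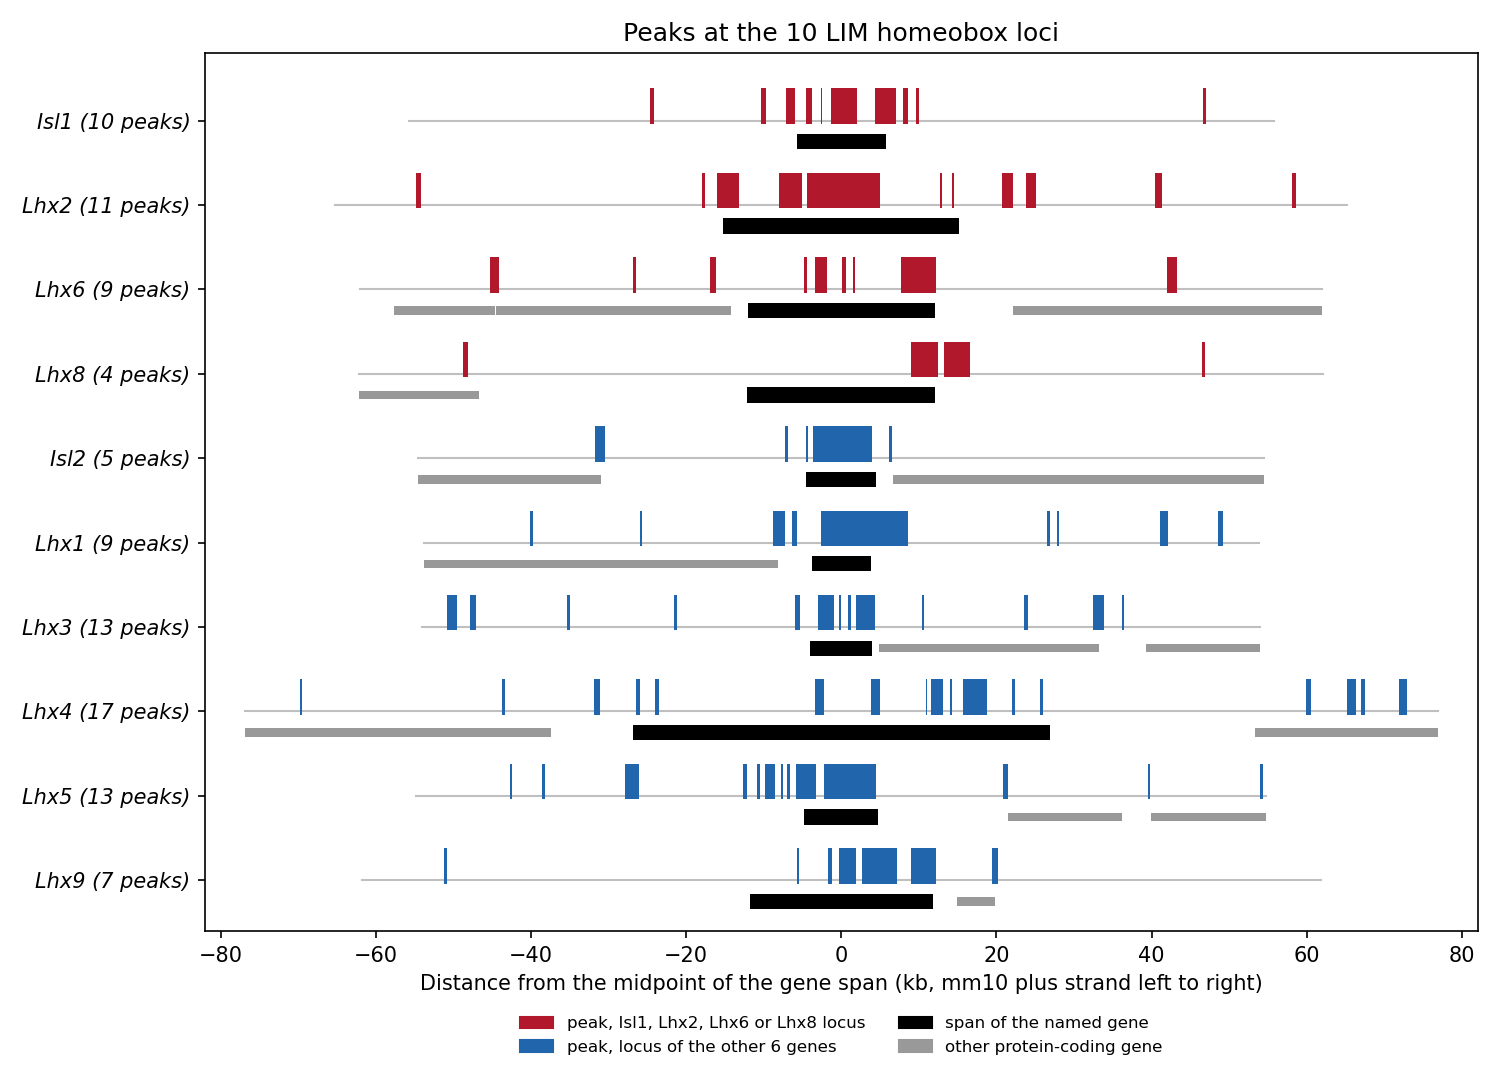
Deposited peaks at the 10 loci, drawn to scale along the distance from the midpoint of each gene span in kb. Coloured blocks are peaks (blocks under 0.25 kb are drawn at 0.25 kb), black bars the named gene, grey bars other protein-coding genes, and the thin line the locus. Peaks gather on the named gene, and Lhx8 has 4 peaks where Lhx4 has 17.

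Peak numbers at Isl1, Lhx2, Lhx6 and Lhx8 overlapped those at the members better known from other regions. These 4 genes had 10, 11, 9 and 4 peaks, against 5 at Isl2, 9 at Lhx1, 13 at Lhx3, 17 at Lhx4, 13 at Lhx5 and 7 at Lhx9. Per 100 kb of locus, which takes gene length into account, the values were 8.98 at Isl1, 8.43 at Lhx2, 7.26 at Lhx6 and 3.22 at Lhx8. In the same unit they were 4.59 at Isl2, 8.37 at Lhx1, 12.0 at Lhx3, 11.1 at Lhx4, 11.9 at Lhx5 and 5.66 at Lhx9. The ranges overlap, and the medians were 7.84 for Isl1, Lhx2, Lhx6 and Lhx8 and 9.71 for the other 6 genes, beside 4.58 for all 21774 protein-coding genes. The order of the medians turned round under several alternatives, for example to 5.85 and 5.20 with only peaks nearest to the gene, so neither set was richer in peaks under all settings.

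The share of the locus covered by peaks gave a similar picture. It was 9.47% at Isl1, 15.8% at Lhx2, 8.53% at Lhx6 and 6.31% at Lhx8, against 9.16% at Isl2, 15.1% at Lhx1, 10.2% at Lhx3, 8.81% at Lhx4, 14.3% at Lhx5 and 9.41% at Lhx9. The median over all protein-coding genes was 4.26%, and all 10 members were above it. An upper quartile over these genes leaves 25% at or above it. For the covered share this limit, 8.30%, was reached by 9 of 10 members, all but Lhx8. For peaks per 100 kb the limit was 7.78, and it was reached by 6 members, Isl1, Lhx2, Lhx1, Lhx3, Lhx4 and Lhx5. More members thus passed the limit on covered length than the limit on number of peaks.

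Coverage of the gene itself varied widely. At least 50% of the span was covered at 4 of 10 members, against 4.59% of protein-coding genes, and these were Isl2, Lhx1, Lhx5 and Lhx3, none of them known chiefly from the striatum. Isl1 with 48.9% and Lhx2 with 48.7% lay just below this limit, Lhx9 had 42.7%, Lhx6 27.9%, Lhx4 16.9% and Lhx8 12.8%. The median over all protein-coding genes was 3.77%. Span length goes with this order in part, and its role was not tested. Lhx1, Lhx3, Isl2 and Lhx5 are the 4 shortest members, with 7560, 8038, 8991 and 9572 bp, and Isl1 follows with 11419 bp. Lhx2, at 30467 bp longer than all but Lhx4, had more of its span covered than the shorter Lhx9, Lhx6 and Lhx8. Lhx9, Lhx6 and Lhx8 are of similar length (23654, 24043 and 24273 bp) and still ranged from 42.7% at Lhx9 and 27.9% at Lhx6 to 12.8% at Lhx8.

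**Figure D3:**
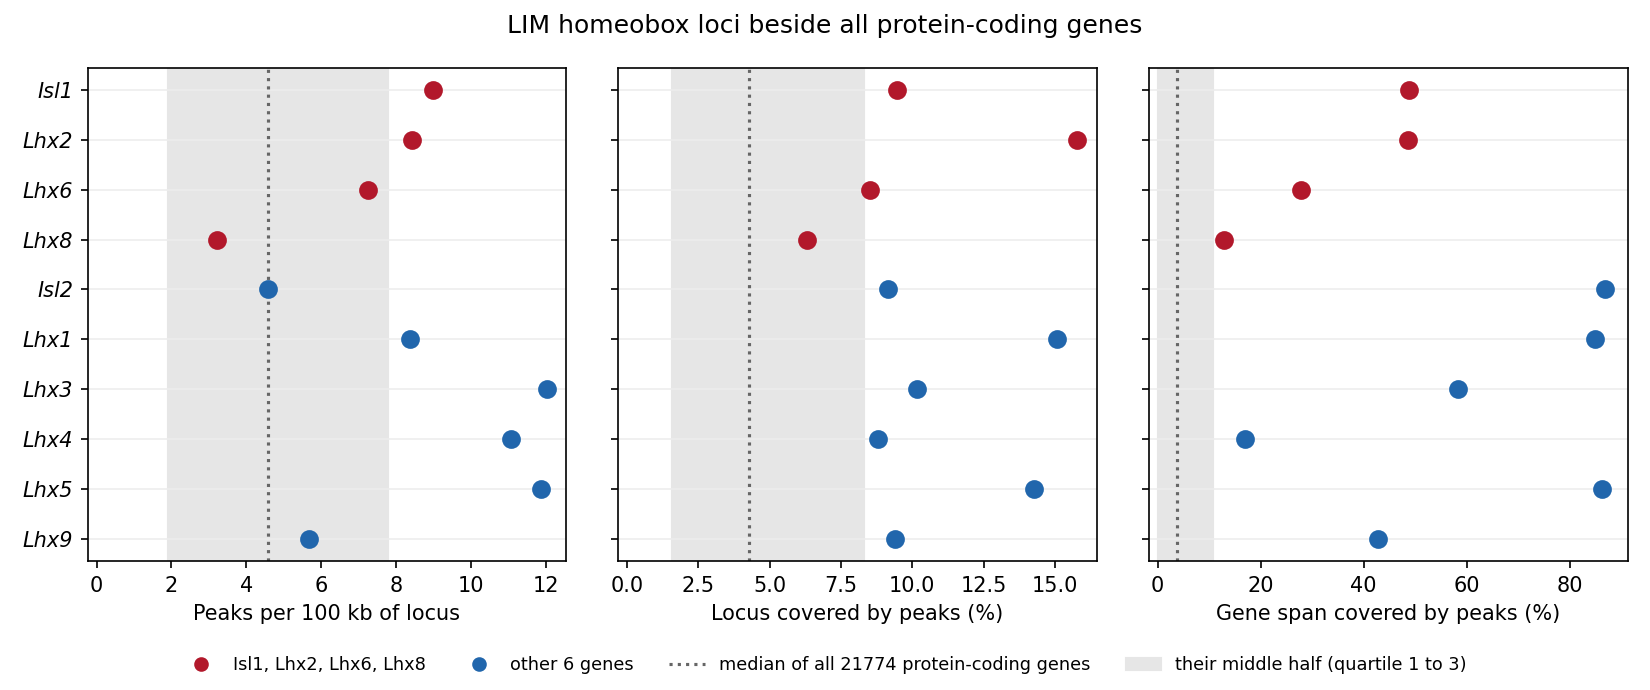
Peaks per 100 kb of locus, share of the locus covered by peaks and share of the gene span covered by peaks, for each of the 10 genes. Points are single values without error, the dotted line is the median and the grey band the range between quartiles of all 21774 protein-coding genes. Isl2 has 86.9% of its span covered at 4.59 peaks per 100 kb, and Lhx8 is lowest in every panel.

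Peaks were concentrated near the genes. Within the span and 10 kb of it, the 10 members had 61 of their 98 peaks. All 10 had more peaks per 100 kb there than from 10 to 50 kb, as did 50.6% of protein-coding genes. Isl1 had 25.5 peaks per 100 kb near the gene and 2.50 farther out, and its near value was at percentile 99.1 of all genes. Lhx5 followed with 23.7 near and 7.50 far, and Lhx3 with 21.4 and 8.75. Lhx2 had 15.9 and 3.75, Lhx4 14.9 and 7.50, Isl2 13.8 and 1.25, Lhx9 13.7 and 1.25, Lhx6 13.6 and 3.75, and Lhx1 10.9 and 7.50. Lhx8 had 4.52 and 2.50. Medians near the gene were 14.7 for Isl1, Lhx2, Lhx6 and Lhx8 and 14.4 for the other 6, beside 4.63 for all genes. From 10 to 50 kb they were 3.13 and 7.50, beside 3.75. In this outer zone Isl1, Lhx2, Lhx6 and Lhx8 were thus at 2.50 to 3.75, and the other 6 at 1.25 to 8.75, a range that encloses it.

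Broad peaks, the broadest 1% of the list, were present at 5 of 10 members, against 3.95% of protein-coding genes. This class holds 872 peaks wider than 4479 bp, counted at a gene when within 1000 bp of its span. The 5 genes were Lhx2 and, of the other 6 Isl2, Lhx1, Lhx5 and Lhx9. Lhx9 with 4573 bp lay just above the limit and Lhx6 with 4433 bp just below it, so the count rests on small differences in width. With the limit at the broadest 5%, all members but Lhx3 had such a peak, against 17.3% of genes. A peak within 1000 bp of either end of the gene span was present at all 10 members, against 67.3% of genes. Both ends had one at 6 members, Isl1, Lhx2, Isl2, Lhx3, Lhx4 and Lhx5, against 14.8%.

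Peak width depended on place. The 19 peaks at a start or gene end of a member had a median width of 2877 bp. The 21 other peaks inside the genes had a median of 426 bp, the 35 peaks outside protein-coding genes 464 bp, the 14 inside other protein-coding genes 463 bp and the 9 at ends of other protein-coding genes 1175 bp. The median of all deposited peaks was 565 bp. The inner Isl1 peak of 3275 bp, the Lhx8 neighbour peak of 3307 bp and the inner Lhx2 peak of 2959 bp were the widest that lay at no start or end of a member. In all, 52 of the 98 peaks were wider than the median of all peaks, 21 of 34 at Isl1, Lhx2, Lhx6 and Lhx8 and 31 of 64 at the other 6 genes. Narrow peaks under 200 bp made up 9 of the 98 (9.18%), against 10.7% of all peaks.

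**Figure D4:**
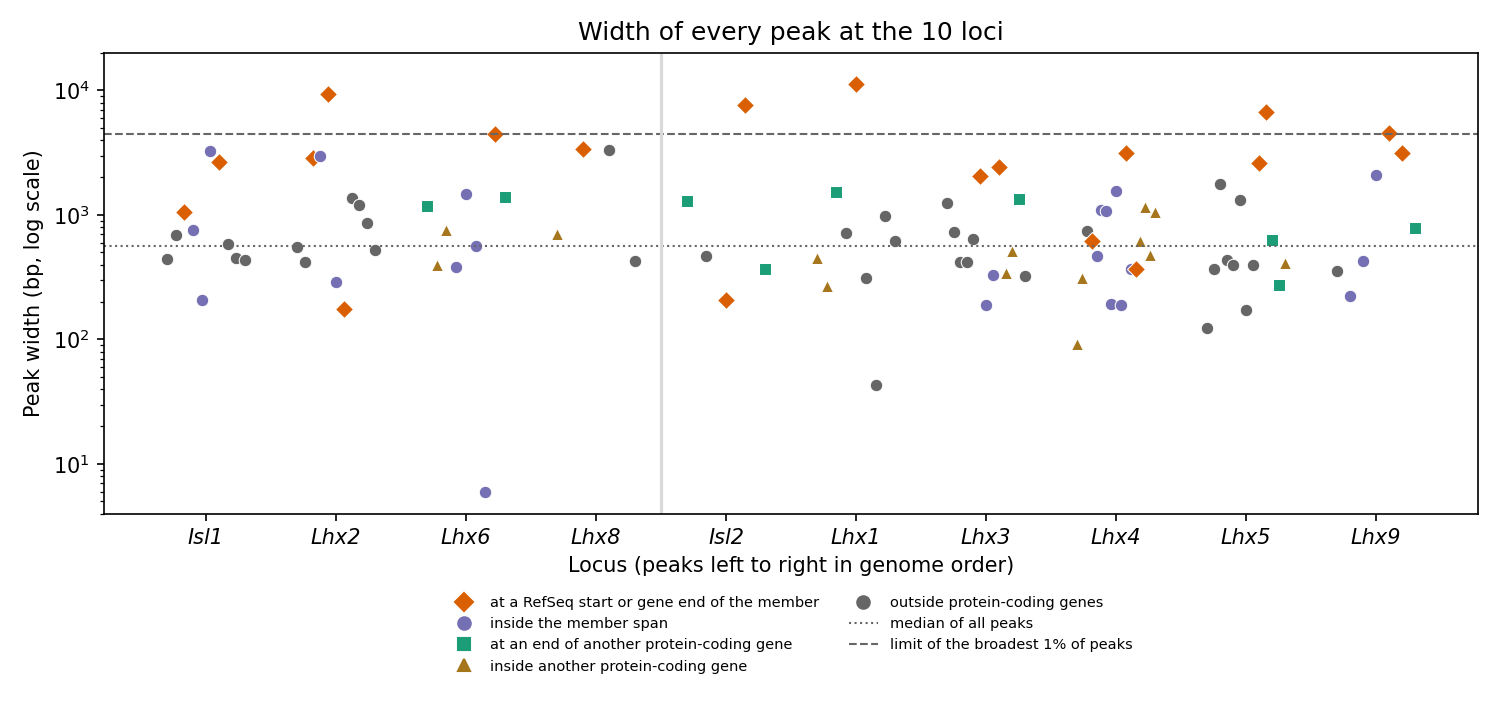
Width in bp, on a log scale, of each of the 98 peaks by locus and place. Symbols give the place of the peak, the dotted line the median of all peaks (565 bp) and the dashed line the limit of the broadest 1% (4479 bp). The peaks above the dashed line are those at Lhx2, Isl2, Lhx1, Lhx5 and Lhx9, all at a start or gene end.

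Paralogues differed in number of peaks, but some pairs were close in other measures. Isl1 had 10 peaks with a widest of 3275 bp, against 5 peaks and 7658 bp at Isl2, and the shares of their loci covered were close, 9.47% and 9.16%. Lhx2 had 11 peaks and 15.8% of its locus covered, against 7 peaks and 9.41% at Lhx9. Outside protein-coding genes Lhx2 had 6 peaks and Isl1 5, against 1 each at Lhx9 and Isl2. In the other pairs Lhx6 had 0 and Lhx8 2, Lhx1 5 and Lhx5 8, and Lhx3 6 and Lhx4 1. The medians of this count were 3.5 for Isl1, Lhx2, Lhx6 and Lhx8 and 3 for the other 6 genes. Lhx6 had 9 peaks and Lhx8 4. Lhx1 had 9 peaks and 15.1% of its locus covered, against 13 peaks and 14.3% at Lhx5. The spans of Lhx1 and Lhx5 were covered alike, at 84.9% and 86.2%. Lhx3 had 13 peaks and 10.2% of its locus covered, against 17 peaks and 8.81% at Lhx4. Per 100 kb of locus Lhx3 had 12.0 peaks and the longer Lhx4 11.1, the reverse of the order by count. Their spans were covered at 58.4% and 16.9%. With 1 value per gene none of these differences could be tested.

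The other LIM homeodomain genes, LIM cofactors and LIM-only genes had a gene-end peak in 12 of 12 cases, where 67.3% of all protein-coding genes have one. Lmx1b, a factor of dorsal spinal and midbrain neurons, had 25 peaks (13.9 per 100 kb) and a broad peak, whereas Lmx1a had 15 (5.76 per 100 kb) and none. Among cofactors the Ssbp genes encode single-stranded DNA-binding proteins that stabilise Ldb1. Ssbp3 had 10.9 and Ssbp4 10.8 peaks per 100 kb, Ldb1 6.86, Ldb2 5.39, Ssbp2 3.18 and the X-linked Rlim, a ubiquitin ligase acting on the complex, 2.42. Broad peaks were present at Ssbp3, Ssbp4 and Ldb1, 3 of the 6 cofactors, where 3.95% of all protein-coding genes have one. The LIM-only genes, whose products bind Ldb1 without a homeodomain, had 12.4 per 100 kb at Lmo1, 11.1 at Lmo4, 6.45 at Lmo2 and 2.82 at Lmo3. Broad peaks were present at Lmo1, Lmo3 and Lmo4, 3 of these 4 genes, beside the same 3.95%. A longer gene has more room for a broad peak, and of these genes Lmo3 spans 219289 bp and Ssbp3 138225 bp. The others with a broad peak were shorter, Lmo1 with 36643 bp, Lmo4 with 16726 bp, Ldb1 with 16621 bp and Ssbp4 with 10903 bp. Ldb2 with 363805 bp and Ssbp2 with 245871 bp had none. The role of length was not tested. Medians were 6.13 per 100 kb for the 6 cofactors and 8.80 for the 4 LIM-only genes, beside 4.58 for all genes.

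Genes that act with Isl1, Lhx6, Lhx8 and Lhx3 gave mixed values. Of the 8 cholinergic genes, chosen for Isl1 and Lhx8, all had a gene-end peak, beside 67.3% of all protein-coding genes, and 6 were at or above the upper quartile of peaks per 100 kb, which 25% of all genes reach. Among these, Gbx2 had 11.6 per 100 kb, Gbx1 11.4 and Zic4 9.70. Chat, the acetylcholine-synthesising enzyme, had 6.97, and Slc5a7, the choline transporter, had 1.59. Slc5a7 and Zic4 had no start in a peak. Of the 6 cholinergic genes with an entry, 4 had a start in a peak, beside 64% of all genes with an entry. Of the 6 direct-pathway genes, chosen for Isl1, 2 were at or above that quartile, Chrm4 with 17.7 and Ebf1 with 8.78, followed by Foxo1 with 4.95 and the dopamine receptor gene Drd1 with 3.83. The neuropeptide genes Pdyn with 3.53 and Tac1 with 1.85 were lowest. All 6 direct-pathway genes had a start in a peak, beside the same 64%.

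Of the 12 interneuron genes, chosen for Lhx6, 4 were at or above the quartile, among them Cux2 with 17.1 peaks per 100 kb and the chemokine receptor genes Ackr3 with 12.5 and Cxcr4 with 12.5. Sst, the somatostatin gene, had 2.95 and Erbb4, the longest of them, 1.53. Nkx2-1, which encodes the factor upstream of Lhx6 and was chosen after its values were seen, had 6.67 and a broad peak. Of the 7 spinal motor neuron genes, chosen for Isl1 and Lhx3, 3 were at or above the quartile, among them Olig2 with 11.6 and Mnx1 with 8.60. Neurog2 with 7.77 lay just under it, Slit2 had 2.58, and Slit2 was the only gene of these 4 lists without a gene-end peak. Medians were 9.48 for the cholinergic, 4.39 for the direct-pathway, 6.72 for the interneuron and 7.77 for the motor neuron genes.

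The labelled tissue was checked with marker genes of several regions. Gene-end peaks were present at 13 of 13 striatal and ganglionic eminence markers, but also at 5 of 5 cortical, 5 of 5 spinal and hindbrain and 5 of 5 diencephalic and hypothalamic markers, so these peaks did not tell regions apart. Broad peaks were present at 10 of 13 striatal markers, 0 of 5 cortical, 2 of 5 spinal and hindbrain and 1 of 5 diencephalic and hypothalamic markers, against 3.95% of all genes. These counts are not of separate, equal loci. Dlx1 and Dlx2 are neighbours, as are Dlx5 and Dlx6, so 1 broad peak can count at both. Longer genes also have more room for a broad peak. Foxp1 spans 597405 bp and Meis2 206274 bp, whereas the cortical markers span 2904 to 16533 bp. The role of either was not tested. In a list of positions without counts, a peak in few nuclei and a peak in many look alike.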

How the data were processed

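Single-nucleus ATAC-seq libraries of wild-type embryonic striatum, 2 in 1 group, share the deposited peak list analysed here. It holds 87174 positions (chromosome, start and end) and no count, score or sample, as the deposited file itself shows. The submitters' processing notes name mm10 as build, and Signac and Cell Ranger ATAC 1.2.0 as tools. The peak caller, pooling and treatment of doublets are not given in the sources used here. Whether starts count from 0 or 1 is not given either, so borders can be off by 1 base. They are printed as deposited and width is end minus start.

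Genes came from a RefSeq table of GRCm38.p6. Of 49997 entries, 402 on scaffolds, on no main chromosome or with repeated symbols were left out. All 10 members were among the 21774 protein-coding genes used. Promoters matched 9 of the 10 by symbol.

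Peaks were counted with Python 3.11.15, pandas 2.3.3 and numpy 2.4.6, and counting was tested on simulated data. A percentile is the rank among all protein-coding genes or start peaks, with ties split. Members, lists and rules were chosen with earlier results of these data known. Named were all 10 members, their neighbours and, of each list, up to 4 genes with the most and 2 with the fewest peaks per 100 kb, with any others needed for a count of 5 or fewer. Some genes counted in the lists are not reported here by name. The 10 to 50 kb zone, CG classes, extent around starts and the 50% limit of span coverage were added after values were seen. Loci are not replicates, so no p-value is given.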

Additional observations from a re-analysis of the deposited data

How the results depend on the processing

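No paired analysis was possible because the list holds no value per library, and for the same reason no library could be left out. A value was taken as stable when it stayed within 1.5 times its main value. In peaks per 100 kb, the main medians were 7.84 for Isl1, Lhx2, Lhx6 and Lhx8 and 9.71 for the other 6, a difference of -1.87. The difference turned round to 0.376 with a flank of 10 kb, to 0.112 with only peaks wider than the median and to 0.645 with only peaks nearest to the gene. It was -1.22 with peaks of at least 200 bp and -0.304 with peaks closer than 1000 bp joined. Medians moved to 14.7 for the first 4 genes with the 10 kb flank, to 4.72 and 4.61 for the 4 and the 6 with peaks wider than the median, and to 5.20 for the 6 with only nearest peaks. The covered shares, 9.00% and 9.78%, became 24.0% and 27.9% with the 10 kb flank. Their difference of -0.782 percentage points was -3.89 with that flank, -0.407 with peaks wider than the median, -1.31 with joined peaks and -0.149 in a window of 50 kb to each side of the span midpoint, which was added after seeing the data. In all settings tried in this section, both medians stayed above the median of all protein-coding genes in the same setting. This does not hold for the zone from 10 to 50 kb described above. There the median was 3.13 for the first 4 genes and 7.50 for the other 6, beside 3.75 for all genes. Members with a broad peak numbered 9 with the broadest 5%, against 5. Joining peaks closer than 1000 bp gave 6, since the neighbouring Lhx8 peaks then passed the limit. Gene-end peaks were found at 9 or 10 members under every setting. Without depth, the list cannot show whether a region with no peak was closed or too thinly covered.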
